A study of Mus musculus with 6 samples.

Results

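The keratin genes form the largest family of intermediate filament proteins, and they were followed here in the mouse uterus. The members were all probe sets of the array to which the platform annotation gives exactly 1 gene symbol made of Krt, a number and at most 1 letter. This gave 54 of 41420 probe sets and, with the brightest probe set standing for each gene, 43 of 16813 genes. Of these, 3 were simple keratins (Krt7, Krt8 and Krt18) and 40 were keratins of stratified epithelium, hair and other sites. For short the 40 are called stratified and hair keratins below, though some, such as Krt20 and Krt222, belong to the other sites. The rule also names Krt19, which was not analysed here. It used no measured difference, only the symbol and the mean level over all 6 arrays.

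Affymetrix arrays measured uteri of 2 week old female mice, 3 with the genotype Arid1a f/f and 3 with the genotype Arid1a d/d, and the study's title concerns the development of endometrial glands. The Arid1a protein binds DNA as part of the chromatin remodelling complex SWI/SNF, and f usually denotes a floxed and d a deleted allele. The labels give neither the Cre driver behind the deletion nor whether animals were pooled, so the cell types that lost Arid1a are not stated. Each array was of uterine tissue from intact mice, in which epithelium is mixed with stroma, muscle and vessels, and a larger share of epithelial cells cannot be told apart from more RNA per epithelial cell.

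Keratins are built as pairs, each filament needing a type I and a type II protein. Krt8 (type II) and Krt18 (type I) are the main pair of simple epithelium, such as the single layer that lines the uterine lumen and its glands, and Krt7 is a second type II keratin of such ducts. Krt5 with Krt14 or Krt15 marks the basal layer of stratified epithelium, Krt1 with Krt10 its differentiating layers, and Krt4 with Krt13 the layers of moist squamous epithelium. Further members build the inner root sheath of hair follicles and the hair shaft. In the reference annotation the genes lie in clusters on chromosomes 11 and 15, with 19 and 24 of the measured members. Krt8 and Krt18 are immediate neighbours on chromosome 15, so that this pair of partners sits side by side although Krt18 is a type I gene, while Krt7 lies elsewhere in the cluster between Krt80 and Krt87.

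Because Krt8 and Krt18 had nearly the same difference in the arrays, the 250 bases before their annotated starts are shown, with those of Krt7, the simple keratin with a smaller difference, and of Krt10, a stratified keratin that was higher in all d/d arrays. They were taken from RefSeq (GRCm38.p6) at chr15:102004343-102004592, minus strand for Krt8, chr15:102027966-102028215, plus strand for Krt18, chr15:101412153-101412402, plus strand for Krt7 and chr11:99389365-99389614, minus strand for Krt10. Capitals mark a GC box (GGGCGG) in Krt7 and a TATA box (TATAAA) in Krt10, on either strand.
Krt8: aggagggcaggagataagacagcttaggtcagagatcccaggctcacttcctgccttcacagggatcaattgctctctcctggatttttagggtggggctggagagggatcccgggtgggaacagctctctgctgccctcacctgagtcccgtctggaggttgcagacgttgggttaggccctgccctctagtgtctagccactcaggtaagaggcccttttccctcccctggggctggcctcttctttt
Krt18: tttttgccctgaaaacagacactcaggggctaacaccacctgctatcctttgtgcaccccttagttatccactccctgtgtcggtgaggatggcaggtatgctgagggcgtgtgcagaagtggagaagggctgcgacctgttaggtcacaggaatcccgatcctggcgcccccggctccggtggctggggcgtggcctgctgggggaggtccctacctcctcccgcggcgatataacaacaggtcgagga
Krt7: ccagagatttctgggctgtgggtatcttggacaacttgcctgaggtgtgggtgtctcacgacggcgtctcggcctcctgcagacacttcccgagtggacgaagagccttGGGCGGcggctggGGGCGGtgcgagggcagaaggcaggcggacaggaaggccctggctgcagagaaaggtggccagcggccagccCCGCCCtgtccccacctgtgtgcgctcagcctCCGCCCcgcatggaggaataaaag
Krt10: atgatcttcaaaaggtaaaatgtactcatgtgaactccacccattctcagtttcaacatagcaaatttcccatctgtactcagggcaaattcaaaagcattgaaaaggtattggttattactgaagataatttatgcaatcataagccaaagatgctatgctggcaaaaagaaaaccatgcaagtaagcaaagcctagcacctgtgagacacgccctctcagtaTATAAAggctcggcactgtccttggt
The Krt7 window held 4 GC boxes, none overlapping another motif, and the Krt10 window held 1 TATA box, 26 to 21 bases before the start. The Krt8 and Krt18 windows held none of the 4 motifs searched on both strands, which were these 2, the AP-1 site TGANTCA and the Grainyhead-like site AACCNGTT. The table gave such a window for 28 of the 43 keratins, in 29 promoters. TATAAA was in 13 of these 29 (44.8%), against 12.4% of all 32851 promoters. GGGCGG was in 2 of 29 (6.9%), against 32.7% of all, and AACCNGTT in 0 of 29 against 1.79%. TGANTCA was in 2 of 29 against 6.75%, and both of these promoters belong to 1 gene, Krt13. The windows of Krt8, Krt18 and Krt7 held 58.0%, 60.4% and 66.0% G and C and that of Krt10 39.6%, with a median of 52.4% over all promoters. These letters describe the windows and were not tested against the arrays.

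Levels are given as log2 of the deposited intensity, with the arrays of a genotype in the order of their replicate numbers, and a positive log2 difference means a higher level in d/d tissue. Levels of different probe sets are not comparable with one another, since each has its own probes. The median of all values, 2.69, marks the dim end of the array, where background limits what a probe set can show. Arid1a itself was lower in d/d arrays, by a log2 difference of -0.58 ± 0.09 (SE; limma adjusted p = 0.0260 over genes), and its adjusted p was above the threshold of 0.05 without any single array other than d/d 1, at 0.0689, 0.111 and 0.104 for the f/f arrays left out in turn and 0.108 and 0.1095 for d/d 2 and d/d 3. Array d/d 1 stood apart from its group: it correlated more closely with f/f 1 (0.9946 over all probe sets) than with d/d 2 (0.9901) or d/d 3 (0.9905). The resemblance was mutual, as f/f 1 correlated less closely with f/f 2 (0.9936) and f/f 3 (0.9935) than with d/d 1. Counts of genes are given with and without d/d 1, and some also without both arrays numbered 1. Of all genes, 192 (1.14%) passed the threshold, and 821 (4.88%) without d/d 1. The share was 0.494%, 0.155% and 0.208% with the f/f arrays left out in turn, 0.214% without d/d 2 and 0.196% without d/d 3.

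No keratin passed over all genes. By limma 0 of 43 rose and 0 fell, beside 0.63% of all genes called higher and 0.512% called lower. At an unadjusted p under 0.05 were 2 of 43, beside 12.2% of all genes (5.29% higher, 6.88% lower). Those 2 were Krt8 and Krt18, both higher in d/d. The median difference was 0.61 over the 3 simple keratins and -0.016 over the 40 stratified and hair keratins, with -0.011 over all genes. Groups did not overlap for 6 of 43 keratins, beside 16.5% of all genes. In d/d, 3 were higher (Krt8, Krt18 and Krt10, beside 7.1% of all genes) and 3 lower (Krt78, Krt13 and Krt27, beside 9.42%). Leaving out d/d 1 gave 2 called keratins, Krt8 and Krt18, both higher, beside 328 of 16813 genes called higher.

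Krt18, by probe set 1448169_at, measured 9.46, 9.55 and 9.17 in f/f tissue against 9.97, 10.10 and 9.98 in d/d tissue. All d/d arrays lay above all f/f arrays, and the 3 d/d values lay within a narrow range. The means were 9.40 ± 0.20 and 10.01 ± 0.07 (SD, n = 3), a 1.53-fold difference. The log2 difference was 0.62 ± 0.12 (SE, 95% interval 0.35 to 0.89) with a limma adjusted p of 0.0582 over genes. Without d/d 1 it was 0.64 with a limma adjusted p of 0.0366. Without each of the other arrays in turn the limma adjusted p lay between 0.124 and 0.251.

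Krt8, by probe set 1420647_a_at, measured 9.41, 9.60 and 9.41 in f/f tissue against 9.86, 10.22 and 10.18 in d/d tissue. Here too the groups were apart, and d/d 1 was the lowest of the d/d arrays. The means were 9.47 ± 0.11 and 10.08 ± 0.20 (SD, n = 3), a 1.53-fold difference. The log2 difference was 0.61 ± 0.12 (SE, 95% interval 0.33 to 0.89) with a limma adjusted p of 0.0686 over genes. Without d/d 1 it was 0.73 with a limma adjusted p of 0.00951. Without each of the other arrays in turn the limma adjusted p lay between 0.163 and 0.265.

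Both other probe sets of Krt8 carry the suffix _x_at, which marks probes that may bind other transcripts. They had log2 differences of 0.64 ± 0.13 and 0.64 ± 0.12 (SE), with limma adjusted p of 0.0999 and 0.0772 over probe sets and 0.0884 for the brightest. In each of the 3 all d/d arrays lay above all f/f arrays. Of the 54 keratin probe sets 0 passed over all probe sets by limma, beside 0.524% of all probe sets (0.314% higher, 0.21% lower).

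With an intensity trend and robust variance in the fit, Krt8 and Krt18 both passed, with limma adjusted p of 0.0438 and 0.0381. Array weights gave 0.0266 and 0.0357. These settings called 1.35% and 2.27% of all genes, and leaving out both arrays numbered 1 called 3.21%. In that last setting Krt8 passed and Krt18 did not, with log2 differences of 0.70 and 0.68 and limma adjusted p of 0.0288 and 0.0687. Median centring, repeated quantile normalization, dropping dim or _x_at probe sets, and the mean of all probe sets called 0 keratins. These called between 1.06% and 1.51% of the genes tested. Both genes were higher in d/d arrays under each setting run, and whether they were called differed between the settings.

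Krt7 measured 5.92, 6.32 and 5.996 in f/f tissue against 6.33, 6.34 and 6.21 in d/d tissue. Here the groups overlapped, as f/f 2 lay above d/d 3. The log2 difference was 0.21 ± 0.12 (SE, 95% interval -0.067 to 0.49; limma adjusted p = 0.571). The within-array log2 ratio of Krt8 to Krt7 differed by 0.40 between the genotypes, higher in d/d, and that of Krt18 to Krt7 by 0.40. Both had an exact permutation p of 0.1 (2-sided, n = 3 per group), the smallest that 3 against 3 allow, and 0.14 adjusted over the 7 ratios compared. The ratio of Krt8 to Krt18 differed between genotypes by -0.0065, with an exact permutation p of 1 (n = 3 per group). The partners had nearly the same difference.

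**Figure D1:**
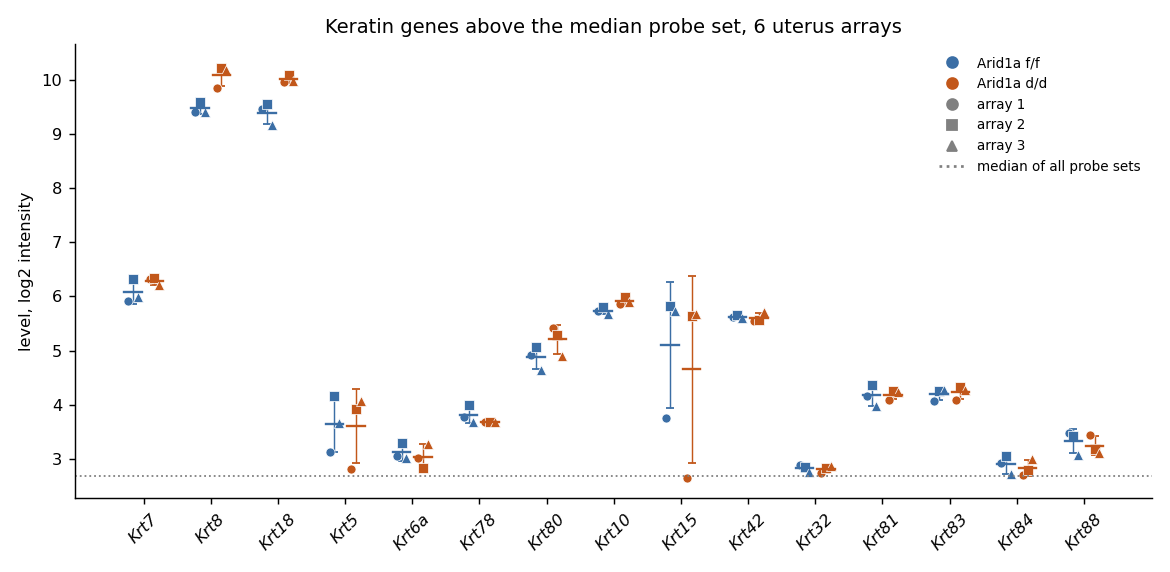
Level of each keratin gene whose brightest probe set exceeded the median of all probe sets (dotted line, 2.69), as log2 intensity. Each point is an array, bars are group means with the SD (n = 3), and levels of different genes are not comparable. Krt8 and Krt18 lie higher in all d/d arrays, and Krt5 and Krt15 are lowest in array 1 of both genotypes.

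Among the 40 stratified and hair keratins, 12 exceeded 2.69 in both genotypes and 28 in neither. Of the 12, 4 were higher and 8 lower in d/d, and 0 passed. Krt10, a type I keratin of differentiating epidermis, measured 5.73, 5.80 and 5.68 in f/f tissue against 5.85, 5.99 and 5.90 in d/d tissue. Its groups were apart, but the difference was small, at 0.18 ± 0.08 (SE, 95% interval -0.018 to 0.37; limma adjusted p = 0.467). Its partner Krt1 lay below 2.69 in both genotypes, at 1.96 and 1.99, as did Krt2.

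Krt80, a type II keratin found in many epithelia and the neighbour of Krt7, measured 4.92, 5.07 and 4.65 in f/f tissue against 5.43, 5.29 and 4.90 in d/d tissue. The groups overlapped, with d/d 3 below f/f 1 and f/f 2. Its difference of 0.33 ± 0.16 (SE, 95% interval -0.055 to 0.71; limma adjusted p = 0.501) was the highest of the 40, and leaving out single arrays moved it between 0.21 and 0.48.

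Krt15 and Krt5, both of basal cells, varied more within a genotype than between them. Krt15 measured 3.75, 5.83 and 5.72 in f/f tissue against 2.65, 5.63 and 5.67 in d/d tissue. The other 4 arrays lay between 5.63 and 5.83, while array 1 was low in both genotypes and d/d 1 fell below 2.69. The log2 difference was -0.45 ± 0.88 (SE; limma adjusted p = 0.903), so that a 2-fold change in either direction lay within its 95% interval of -2.49 to 1.59. Krt5 measured 3.12, 4.15 and 3.65 in f/f tissue against 2.81, 3.92 and 4.07 in d/d tissue. Array 1 was again the lowest of each genotype, and the log2 difference was -0.040 ± 0.37 (SE; limma adjusted p = 0.983). Without both arrays numbered 1 the differences were -0.12 for Krt15 and 0.092 for Krt5, and without d/d 1 alone they were 0.55 and 0.35, none of them called.

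Sprr1a, a cornified envelope gene, was also lowest in array 1 of both genotypes, at 2.10, 2.93 and 2.97 in f/f tissue against 2.27, 2.81 and 3.09 in d/d tissue. The cornified envelope genes did not share this order. Cdsn and Sprr1b were lowest in array 1 of both genotypes too, but Tgm1 and Sbsn were highest there. The means of Cdsn, Sprr1b and Tgm1 lay under 2.69 in both genotypes, where background limits what an order of arrays shows. Those of Sprr1a lay close to it, at 2.67 in f/f and 2.72 in d/d tissue. Krt14, the usual partner of Krt5, lay below 2.69 in each array by all 3 of its probe sets. Trp63, the master regulator of basal cells, did so too, at 2.05, 2.19 and 2.09 in f/f tissue against 2.20, 2.05 and 1.92 in d/d tissue. The mean of 11 cell cycle genes, a list added after the levels had been seen, was 5.88, 5.98 and 6.78 in f/f tissue against 5.64, 7.17 and 6.94 in d/d tissue. It was lowest in array 1 of each genotype. Arrays f/f 1 and f/f 2 lay close together in this mean and far apart in Krt15. Whether the cell cycle genes and the Krt15 levels are related was not tested.

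**Figure D2:**
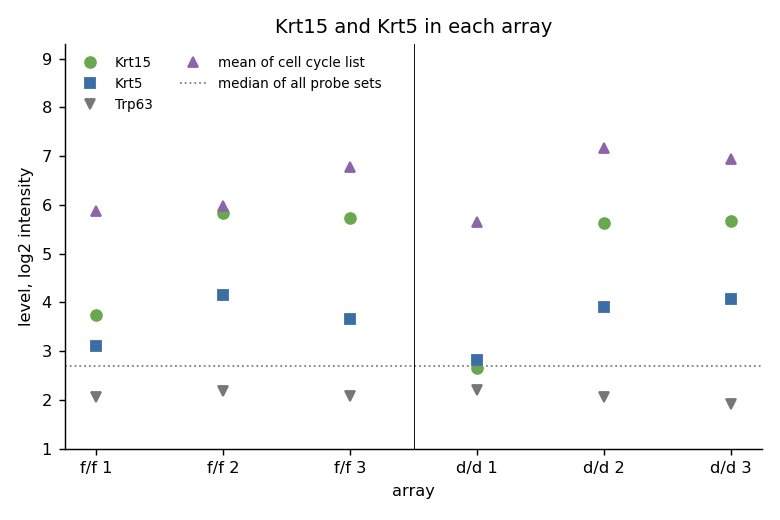
Log2 intensity of Krt15, Krt5 and Trp63 and the mean log2 intensity of 11 cell cycle genes in each of the 6 arrays. The dotted line is the median of all probe sets, 2.69. Krt15 stands at 3.75 in f/f 1 and 2.65 in d/d 1 and between 5.63 and 5.83 in the other 4 arrays, and Trp63 lies below the line throughout.

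The remaining type II keratins above 2.69 were Krt6a, a keratin of wounded and strained epithelium, at a difference of -0.079, and Krt78 at -0.14. Krt78 was lower in all d/d arrays, at 3.77, 3.99 and 3.69 in f/f tissue against 3.69, 3.68 and 3.68 in d/d tissue (limma adjusted p = 0.682). The lowest f/f array and the highest d/d array were equal at 2 decimals. Krt42, a type I gene beside Krt17, stood at -0.019 by its brighter _x_at probe set and at 0.13 by its other, which was below 2.69. Of the hair keratins 5 of 12 exceeded 2.69: Krt81 (0.014), Krt83 (0.031), Krt32 (-0.013), Krt84 (-0.067) and Krt88 (-0.084). Krt88 was counted with them because its gene lies among theirs. The 12 hair keratins had differences from -0.084 to 0.037, and their 95% intervals lay between -0.41 and 0.34. As intensities these bounds are 1.33-fold down and 1.27-fold up. The 7 hair keratins under 2.69 in both genotypes lie where background limits what a probe set can show. Their intervals do not bound a change in RNA.

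The 28 keratins under 2.69 had differences from -0.22 to 0.27, with 12 higher and 16 lower in d/d. Their 95% intervals lay between -0.53 and 0.62, but at this level background limits what they show. The smallest p among those higher belonged to Krt17, a type I keratin of activated and basal cells, at 0.27 ± 0.15, and Krt79, a type II keratin of hair follicle ducts, at 0.24 ± 0.14 (SE; limma adjusted p of 0.561 and 0.587). The other probe set of Krt17 gave 0.058. Among those lower they were Krt24 at -0.22 ± 0.10 and Krt27, an inner root sheath keratin, at -0.18 ± 0.10 (SE; limma adjusted p of 0.445 and 0.540). Krt4 and Krt13, the pair of moist squamous epithelium such as that of the vagina, stood below 2.69 in every array, with differences of -0.014 and -0.12. A probe set shared by Krt14 and Krt17 was not counted and gave 0.14.

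**Figure D3:**
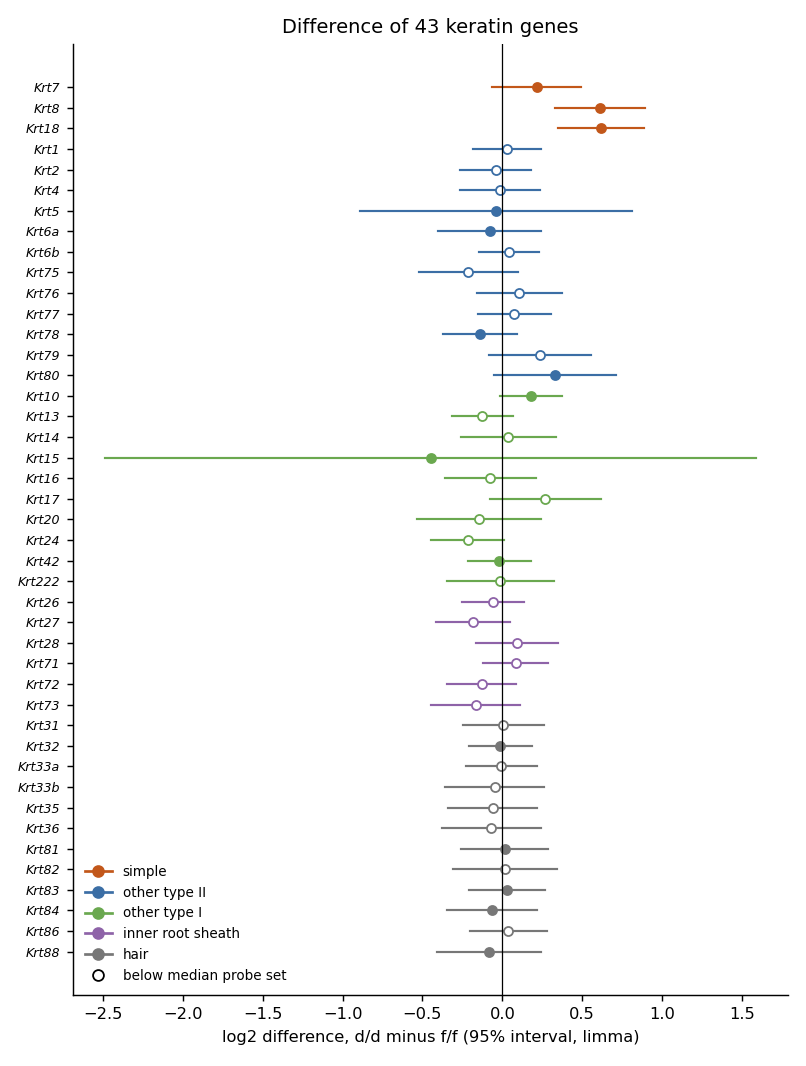
Log2 difference of each of the 43 keratin genes, d/d minus f/f, with the 95% interval from limma, coloured by class. Open circles mark genes whose mean did not exceed 2.69 in either genotype. Krt8 and Krt18 stand at 0.61 and 0.62, the other 41 lie between -0.45 and 0.33, and Krt15 has the widest interval.

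Among the genes that anchor keratin filaments some passed. Of 15 measured genes of desmosomes and keratin anchors, 2 rose, 0 fell and 13 did not pass (median 0.27, with -0.011 over all genes), beside 0.63% of all genes called higher. Dsp, desmoplakin, which ties keratin filaments to desmosomes, measured 7.94, 7.85 and 7.75 in f/f tissue against 8.65, 8.95 and 8.63 in d/d tissue. All d/d arrays lay above all f/f arrays, and it rose by 0.90 ± 0.11 (SE; limma adjusted p = 0.0166). Eppk1, epiplakin, a keratin-binding plakin, measured 2.75, 2.66 and 2.62 in f/f tissue against 3.49, 3.51 and 3.29 in d/d tissue. It rose by 0.75 ± 0.10 (SE; limma adjusted p = 0.0165) from a level close to 2.69, the dim end of the array. Leaving out d/d 1 gave 4 risen members, leaving out f/f 1 gave 2, leaving out d/d 3 gave 1, and leaving out f/f 2, f/f 3 or d/d 2 gave 0. Without d/d 1, f/f 1 and d/d 3 in turn, 328, 49 and 21 of all genes were called higher.

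Of the other anchors, Dsg2, a desmosomal cadherin, stood at 0.61 and Pkp2, a plakophilin of simple epithelium, at 0.64 (limma adjusted p of 0.0716 and 0.101). The hemidesmosome genes, which anchor basal keratins to the matrix, did not pass: Itga6 stood at -0.36, Itgb4 at -0.019, Plec at 0.049 and Dst at -0.12. Itga6 was lower in all d/d arrays (limma adjusted p = 0.292). Of the 15 anchors, 6 were higher in all d/d arrays and 1 lower, beside 7.1% and 9.42% of all genes. Jup, plakoglobin, stood at 0.083.

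Of 12 measured epithelial markers that are not keratins, 2 rose, 0 fell and 10 did not pass (median 0.47), beside 0.63% of all genes called higher and 0.512% called lower. Muc1, a surface mucin, measured 4.67, 4.69 and 4.68 in f/f tissue against 5.40, 5.85 and 5.87 in d/d tissue, and Cdh1, the epithelial cadherin, 8.17, 7.91 and 8.02 in f/f tissue against 8.87, 9.37 and 8.86 in d/d tissue. In both genes all d/d arrays lay above all f/f arrays, with rises of 1.03 ± 0.13 and 1.00 ± 0.15 (SE; limma adjusted p of 0.0178 and 0.0314). Cldn7, a claudin, and Spint2, a protease inhibitor, stood at 0.62 and 0.43 and Epcam, the general epithelial adhesion molecule, at 0.14, and none of the 3 passed. Esrp2, Grhl2 and Esrp1 stood at 0.87, 0.52 and 0.50 and did not pass either. In 7 of the 12 all d/d arrays lay above all f/f arrays, beside 7.1% of all genes. At an unadjusted p under 0.05 by limma, 7 were higher and 0 lower, beside 5.29% and 6.88% of all genes. Of the 12, 9 were higher and 3 lower in d/d. The lower ones were Ehf, an epithelial ETS factor, at -0.53, Prom1, prominin, at -0.22 with its groups apart, and Cldn3, another claudin, at -0.18, and none of these passed. Within each array the ratio of Krt8 to Epcam was higher in d/d by 0.47 and that of Krt18 to Epcam by 0.48, while their ratios to Cdh1 were lower by 0.39 and 0.38. The exact permutation p was 0.1 for each of these but Krt8 to Cdh1, with 0.2 (2-sided, n = 3 per group). Adjusted over the 7 ratios, the exact permutation p was 0.14 to 0.233. The sign of these ratios went with the marker chosen, and at 3 against 3 arrays none could reach 0.05. The number of risen markers was 5 without d/d 1, with 1 lower, and 0 without any other single array. Without d/d 1, 328 of all genes were called higher and 493 lower, against 106 and 86 with all arrays.

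Among 7 measured regulators of stratified epithelium 1 rose, 0 fell and 6 did not pass (median 0.34), beside the same 0.63% and 0.512% of all genes. Barx2, a homeobox factor, measured 3.21, 3.45 and 3.28 in f/f tissue against 4.14, 4.59 and 4.26 in d/d tissue. It rose by 1.02 ± 0.13 (SE; limma adjusted p = 0.0181), with all d/d arrays above all f/f arrays. Tfap2c, an AP-2 factor, stood at 0.60 and Grhl3, a Grainyhead-like factor of barrier epithelium, at 0.50 (limma adjusted p of 0.103 and 0.318), and Klf5 at 0.16. The count was 3 without d/d 1, beside 328 of all genes called higher, and 0 without any other single array. Of 13 cornified envelope genes 0 rose and 0 fell by limma. None had an unadjusted p under 0.05, beside 12.2% of all genes, and their differences lay between -0.12 and 0.055.

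**Figure D4:**
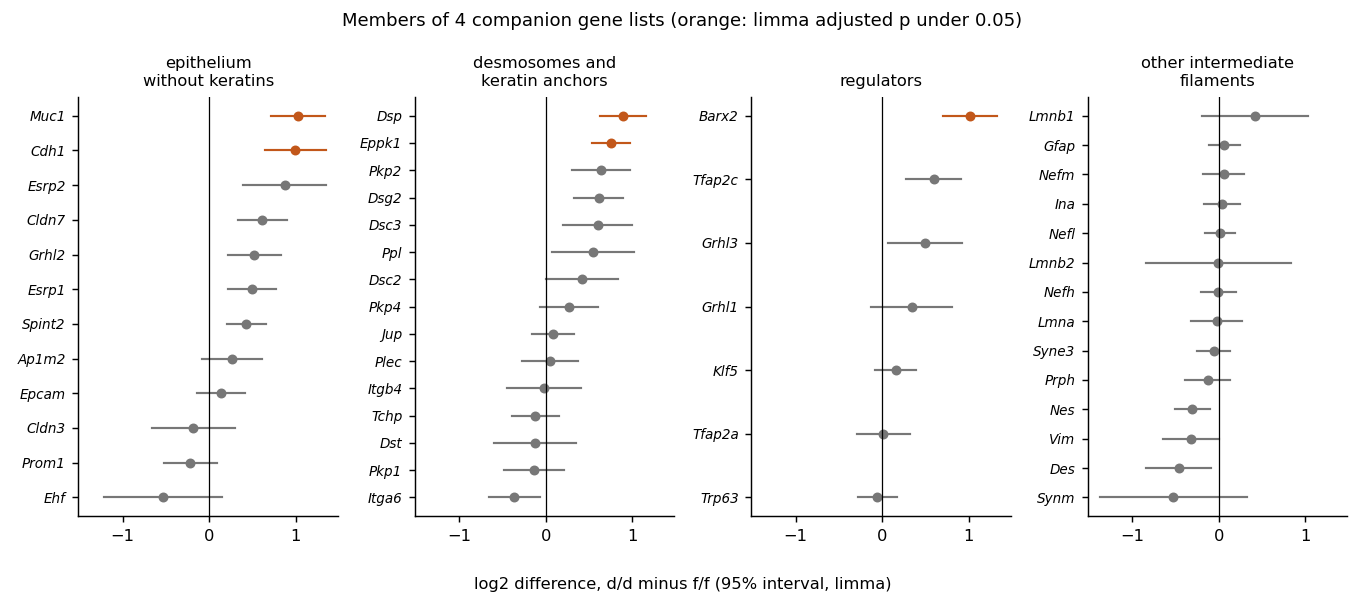
Log2 difference, d/d minus f/f, with the 95% interval from limma, of the measured members of 4 lists: epithelial markers that are not keratins, genes of desmosomes and keratin anchors, regulators of stratified epithelium, and other intermediate filament genes. Orange marks an adjusted p under 0.05 over all genes: Muc1, Cdh1, Dsp, Eppk1 and Barx2, all higher in d/d.

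The other intermediate filament genes gave 0 calls of 14 by limma, beside 1.14% of all genes. At an unadjusted p under 0.05 were 2 of 14, both lower, beside 12.2% of all genes (6.88% lower). They were Nes, nestin, at -0.30 ± 0.09 and Des, the muscle filament desmin, at -0.46 ± 0.16 (SE; limma adjusted p of 0.195 and 0.291). Vim, the filament of stroma and other mesenchyme, measured 10.63, 10.44 and 10.48 in f/f tissue against 10.45, 10.23 and 9.92 in d/d tissue. The groups overlapped, with d/d 1 just above f/f 2, and the difference was -0.32 ± 0.14 (SE; limma adjusted p = 0.424). Without d/d 1, 1 member rose and 1 fell, beside 328 and 493 of all genes.

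Markers of other cell types are given beside these values. All 10 stromal markers were lower in d/d (median -0.34), where 8979 of all 16813 genes were lower. Of the 10, 1 fell, beside 0.512% of all genes called lower. This was Thy1, by -1.06 ± 0.13 (SE; limma adjusted p = 0.0155). It was called without d/d 1 and without f/f 1 and not without any other single array. All 6 endothelial markers were lower (median -0.65), as were all 6 fat markers (median -1.18) and all 8 smooth muscle markers (median -0.22), with none called. An intensity trend with robust variance called 2 endothelial markers lower, array weights 3 endothelial and 2 fat markers, and repeated quantile normalization 1 endothelial marker. These settings called 101, 187 and 94 of the 16813 genes lower, against 86 in the main fit. Leaving out both arrays numbered 1 called 4 endothelial and 4 fat markers, beside 319 genes called lower. Without d/d 1, 5 endothelial, 4 fat, 2 stromal and 1 smooth muscle markers fell, beside 493 genes called lower. The mean of the fat list was 5.13, 5.06 and 5.71 in f/f tissue against 4.80, 3.91 and 4.09 in d/d tissue, so its groups were apart, and the mean of the stroma list ran from 9.87 to 10.05 in f/f and from 9.41 to 9.70 in d/d. Mesothelium, the outer lining of the uterus, also holds Krt8 and Krt18. Of its 7 markers 0 passed, 6 were higher and 1 lower in d/d, and the median was 0.095. Lrrn4 had the smallest p, at 0.28 with all d/d arrays above all f/f arrays (limma adjusted p = 0.257). Msln, mesothelin, was the lower one at -0.14, and Wt1, which stroma also expresses, stood at 0.095. Of 7 leukocyte markers 0 passed, with 3 higher and 4 lower (median -0.047). Cd68, a macrophage marker, stood at 0.46 with its groups apart (limma adjusted p = 0.0544). Csf1r and Adgre1, also of macrophages, stood at -0.24 and 0.013. Cd3d was lower in all d/d arrays, at -0.36 (limma adjusted p = 0.181). The means of the markers of stroma, muscle and vessels exceeded 2.69 in both genotypes, and the part of the tissue's makeup in the keratin differences was not tested.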

How the data were processed

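Each deposited value is a linear intensity of 1 probe set on 1 array. The submitters' processing notes name RMA, and give no version, settings or genome build. RMA brings the arrays to a shared distribution and compresses differences near background. Per the labels, 500 ng of total RNA was labelled per array. The tests had been planned for either scale, and log2 was taken of the linear values with no added constant. Array medians lay between 6.34 and 6.59 intensity units, and correlations between arrays between 0.987 and 0.995. Precision is limited by the number of arrays.

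The test was limma 3.58.1 (R 4.3.3; lmFit, eBayes, no trend, not robust, no covariate, 2-sided), run on all 41420 probe sets and on all 16813 genes, each by its brightest probe set with 1 symbol (31562 had 1, 830 several, 9028 none). P-values were adjusted by Benjamini-Hochberg over all genes or probe sets, with a threshold of 0.05. The labels do not say whether arrays came from separate animals, so p-values cover only the spread among these arrays, and that may be technical. All 43 keratin symbols matched RefSeq (GRCm38.p6).

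Named keratins were the 3 simple ones, those above the median of all values in a genotype, any that passed, and of the rest the 2 of smallest p each way. Of 11 companion lists, members that passed and up to 4 of smallest p were eligible, and further members are named after their values were seen. The members and lists were chosen with earlier results of these data known, and the cell cycle list and the within-array ratios were added after the levels had been seen. The steps were tested on simulated data. Alternatives were a replicate block, a trend with robust variance, array weights, median centring, quantile normalization once more, dropping dim probe sets (below percentile 40) or those with the suffix _x_at, the mean of all probe sets, and leaving out each array or both numbered 1.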

Additional observations from a re-analysis of the deposited data

How the results depend on the processing

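Krt7, Krt8, Krt18, Krt10, Krt80, Krt78, Krt88, Krt17, Krt79, Krt24 and Krt27 kept their direction under every alternative run. The median of the simple keratins lay between 0.50 and 0.68 throughout and that of the stratified and hair keratins between -0.061 and 0.018. Pairing by replicate number was not assumed: deviations from the group means correlated at 0.545, 0.0195 and 0.307 between arrays of the same number, and not every array correlated best with its own number. As a replicate block, the number gave 2 keratins called, both higher (Krt8 and Krt18, limma adjusted p of 0.0318 and 0.0310), with 457 genes (2.72%) and 574 probe sets against 192 and 217. The block also called 3 endothelial markers lower, against 0, and 240 of all genes lower, against 86. A trend with robust variance called 2 keratins, array weights 2 (381 genes, 329 probe sets) and leaving out both arrays numbered 1 called 1 (540 genes, 657 probe sets), all higher. The remaining alternatives that kept all arrays called 0 keratins. With single arrays left out, keratins called ranged from 0 to 2, genes from 26 to 821 and probe sets from 37 to 971. Among the named keratins, differences of 8 that were not called under any setting changed sign. Array weights gave 0.125 for Krt5 and 0.0099 for Krt32. Leaving out both arrays numbered 1 gave 0.092 for Krt5, 0.0041 for Krt42, 0.054 for Krt32 and 0.011 for Krt84. Krt42 stood at 0.13 without _x_at probe sets, which leaves its dimmer one, and at 0.056 with the mean of both. Single arrays left out gave ranges of -0.30 to 0.35 for Krt5, -0.20 to 0.030 for Krt6a, -1.13 to 0.55 for Krt15, -0.070 to 0.0093 for Krt42, -0.047 to 0.028 for Krt32, -0.083 to 0.115 for Krt81, -0.033 to 0.099 for Krt83, and -0.16 to 0.012 for Krt84. Apart from the Krt42 probe sets the cause was not tested. Arid1a ranged from -0.62 to -0.53. Probe sets below 2.69 limit 28 keratins.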
